A study of Mus musculus with 8 samples.

Results

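CAM_2 is the name that the authors of the deposited annotation gave to a cluster of CNS-associated macrophages, the macrophages that live in the meninges and along the vessels of the central nervous system. Its members were taken as all cells with the label CAM_2 in that annotation, 1976 of the 32457 annotated cells in 8 scRNA-seq libraries. The libraries hold CD45+ leukocytes of adult male C57BL/6 mice that an intravenously injected CD45 antibody had not stained, which keeps leukocytes inside vessels out of the sort. They came from brain parenchyma, pia mater or dura mater of control mice or of mice at 24 h after transient middle cerebral artery occlusion, a model of ischemic stroke, and from brain parenchyma at 72 h. Brain at 24 h had 2 libraries, called replicates 1 and 2 here, and all other conditions had 1. No mouse carried a transgene or a deletion. The study's reporting summary gives a pooled n for each compartment but not the number of mice behind each library, and the control mice are named naive in one place of the study and sham-operated in another. Control pia carries a title with brain in it, while its tissue label is pia, and it was used as pia.

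Border macrophages are known for Pf4, a platelet-type chemokine that marks them in mice, for Lyve1, a receptor for hyaluronan, and for scavenger receptors such as Cd163, which takes up hemoglobin-haptoglobin complexes, and Mrc1, the mannose receptor. Microglia, the macrophages of the parenchyma, lack most of these and are known for Tmem119, for P2ry12, a receptor that senses purines released by damaged cells, and for Sall1, a transcription factor that maintains their identity. Both kinds of cell make Apoe, the main lipid carrier protein of the brain, and both can take up lipid and debris after ischemia. Monocytes that enter from the blood carry Ccr2, the receptor for the chemokine Ccl2, and Ly6c2.

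The control, 24 h replicate 1, 24 h replicate 2 and 72 h brain libraries held 171, 273, 89 and 642 CAM_2 cells. Control pia and pia at 24 h held 293 and 294, and control dura and dura at 24 h held 83 and 131. Of all annotated cells in a library, CAM_2 made up 3.98% (95% interval 3.41 to 4.61%) in control brain, 5.96% (95% interval 5.29 to 6.68%) and 2.57% (95% interval 2.07 to 3.15%) in brain at 24 h and 10.6% (95% interval 9.85 to 11.4%) in brain at 72 h. In the same order of control and then 24 h, the shares were 10.4% (95% interval 9.32 to 11.6%) and 7.5% (95% interval 6.69 to 8.37%) in pia and 2.95% (95% interval 2.36 to 3.65%) and 2.9% (95% interval 2.43 to 3.43%) in dura. The highest shares were thus in control pia and in brain at 72 h, while both 24 h brain libraries differed from each other by more than their exact (Clopper-Pearson) intervals. These intervals cover counting error only, and with 1 library in all but 1 condition the shares were not tested.

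The libraries stood apart in ways that bear on every comparison with brain. Replicate 2 of brain at 24 h and the 72 h brain library were deposited with a list of 31053 genes, and the other 6 libraries with 32285. These 2 libraries shared 8 cell barcodes with each other and at most 2 with any of the other 6, which shared 10 to 32 per pair, and no barcode was CAM_2 in both libraries of a pair. The summed unique molecular identifiers (UMIs) of CAM_2 were 196430, 481051, 169881 and 2436467 in the brain libraries, 317218 and 454586 in pia and 133629 and 299526 in dura. The median per cell was highest in brain at 72 h, at 3687.5 UMIs, and lowest in control pia, at 750. The median mitochondrial share of CAM_2 cells was 0.88% in control brain, 0.66% and 1.83% in brain at 24 h and 1.69% at 72 h. In control and then 24 h it was 3.24% and 1.76% in pia and 2.05% and 1.61% in dura. Its part in the differences below was not tested. Levels below are CPM, which scale the UMIs of a gene to the same total in the CAM_2 cells of every library. They are listed for brain in the order control, 24 h replicate 1, 24 h replicate 2 and 72 h, and for pia and dura as control and 24 h.

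The name of the cluster held in pia and dura but not in all brain libraries. Pf4 stood at 5.09, 4.16, 141 and 264 CPM in brain, 3342 and 2127 CPM in pia and 3143 and 2063 CPM in dura. Lyve1 was at 0, 0, 5.89 and 0 CPM in brain, 404 and 429 CPM in pia and 247 and 100.2 CPM in dura. Cd163 was at 0, 0, 0 and 0.41 CPM in brain, 356 and 449 CPM in pia and 284 and 307 CPM in dura. All 3 genes thus separated the 4 pia and dura libraries from the 4 brain libraries without overlap, and neither Lyve1 nor Cd163 was counted in control brain or in replicate 1 at 24 h. F13a1, which encodes a subunit of a transglutaminase and marks border macrophages, was at 0, 0, 265 and 228 CPM in brain, 1901 and 2519 CPM in pia and 1572 and 1299 CPM in dura. The microglia genes went the other way in control brain and brain at 24 h replicate 1. Tmem119 was at 3268, 1099.7, 229.6 and 181 CPM in brain, 53.6 and 77 CPM in pia and 89.8 and 117 CPM in dura. P2ry12 was at 6038, 553, 70.6 and 32.8 CPM in brain, 224 and 85.8 CPM in pia and 195 and 90.1 CPM in dura. Control brain thus had the highest level of both, while brain at 72 h had less P2ry12 than any pia or dura library. The cells are therefore called the CAM_2 cluster below and not border macrophages.

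The same split was seen in shares of cells once every cell was thinned to 1000 UMIs and shallower cells were left out. Pf4 was found in 0 of 99 cells in control brain, where a limit of 3 cells allows up to 3.03% of cells with a UMI at this depth, and in 1 of 202 cells (0.495%) in brain at 24 h replicate 1. It was found in 8.7% of 46 cells in replicate 2 (interval 2.42 to 20.8%) and in 13.9% of 632 cells in brain at 72 h (11.3 to 16.9%). In pia and dura the share lay between 70.8% and 76.8%, as 76.8% and 70.8% in pia and 75% and 71.8% in dura. Lymphoid cells, which should lack Pf4 and so show the level of free RNA, had it in 0% of cells in replicate 2, in 0.946% in brain at 72 h and in at most 8.54% in the meninges, the latter in control pia. Before thinning, those CAM_2 cells had medians of 2111 and 3718 UMIs in these brain libraries and 1699 in control pia, and the lymphoid cells 1997, 1473 and 1396. Without thinning, 32.7% of CAM_2 cells at 72 h and 89.4% in control pia had a Pf4 UMI.

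Replicate 2 of brain at 24 h and the 72 h brain library also carried monocyte RNA. Ccr2 was at 0, 6.24, 241 and 284 CPM in brain, 6.3 and 24.2 CPM in pia and 119.7 and 63.4 CPM in dura. Ly6c2 was at 0, 0, 70.6 and 126 CPM in brain, 0 and 2.2 CPM in pia and 0 and 0 CPM in dura, so it was nearly confined to these 2 libraries. The 12 monocyte genes listed, of which S100a6 was the most abundant, summed to 10.2, 41.6, 2143 and 4772 CPM in brain, 142 and 167 CPM in pia and 606 and 484 CPM in dura. In CAM_1 the same genes summed to 716 and 5408 CPM in replicate 2 and in brain at 72 h, and to at most 190 CPM in any other library. The sum was thus not particular to CAM_2. Hemoglobin, from red blood cells, was highest in replicate 2, where Hbb-bs was at 1478 CPM against 132 in brain at 72 h, 224 in dura at 24 h and 0 in the other 5 libraries. T and NK cell genes stayed at or below 82.3 CPM in sum, with Cd4 the most abundant, and endothelial and fibroblast genes at or below 52.4 CPM, with Pecam1 the most abundant. B cell genes, led by Ighm, reached 801 and 841 CPM in control and 24 h dura and 473 CPM in control brain. Dendritic genes, led by Fscn1, had their highest sum in control brain, at 723 CPM. In that library this sum was 522 CPM in CAM_1 and 723 CPM in the microglia clusters, also led by Fscn1. It was thus not particular to CAM_2. The part of these other cells in the differences below was not tested.

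**Figure D1:**
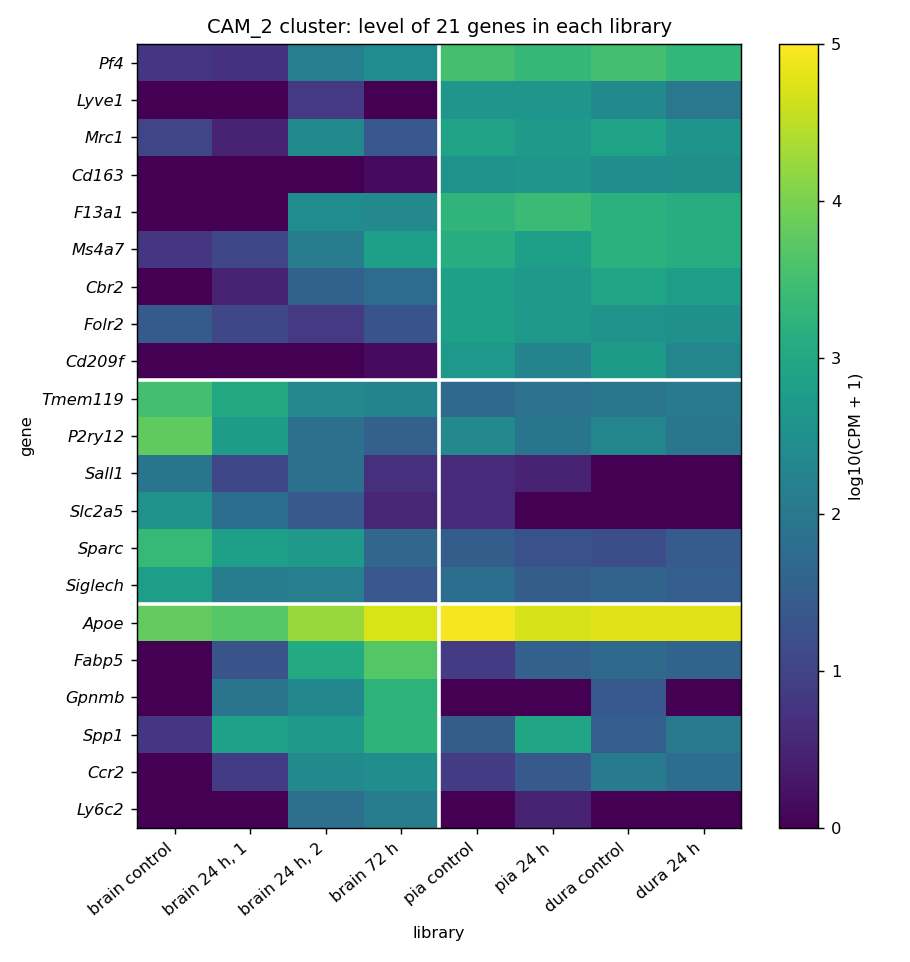
Level of 21 genes (rows) in the CAM_2 cluster of each library (columns), with the colour giving log10(CPM + 1) and the white lines parting brain from pia and dura, and border genes from microglia genes and from other genes. Pf4 and Lyve1 were highest in the 4 pia and dura libraries and Tmem119 in control brain, and for Pf4 replicate 2 at 24 h and the 72 h library lay between the other brain libraries and the meninges.

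Which genes of the CAM_2 cluster differ between brain and meninges was asked over all 8 libraries, with tissue and time as terms in edgeR's quasi-likelihood model. Called genes differ by 2-fold or more with an adjusted p (Benjamini-Hochberg over all genes tested) under 0.05. Of 6508 genes tested, 104 (1.6%) were higher and 144 (2.21%) lower in brain than in pia and dura, and the median log2 fold change of all genes was 0.16. Scaled by library size alone this median was 0.41, and the calls were 167 higher and 84 lower. Left-out libraries moved the count more, to 1223 calls without brain at 24 h replicate 2 and to 593 without replicate 1, and to between 56 and 113 without any 1 of control brain or the pia and dura libraries. Only 18 of the 56 genes tested by name below passed under every alternative tried, and they are pointed out. Brain at 72 h is the sole library of its time and does not enter the estimate of the tissue difference. For genes with 3 UMIs or fewer on one side, the difference is given without it, over the control and 24 h brain libraries, as a ratio of pooled levels for 1 to 3 UMIs and for 0 as a lower bound against 3 UMIs per library, averaged over the libraries at 0.

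**Figure D2:**
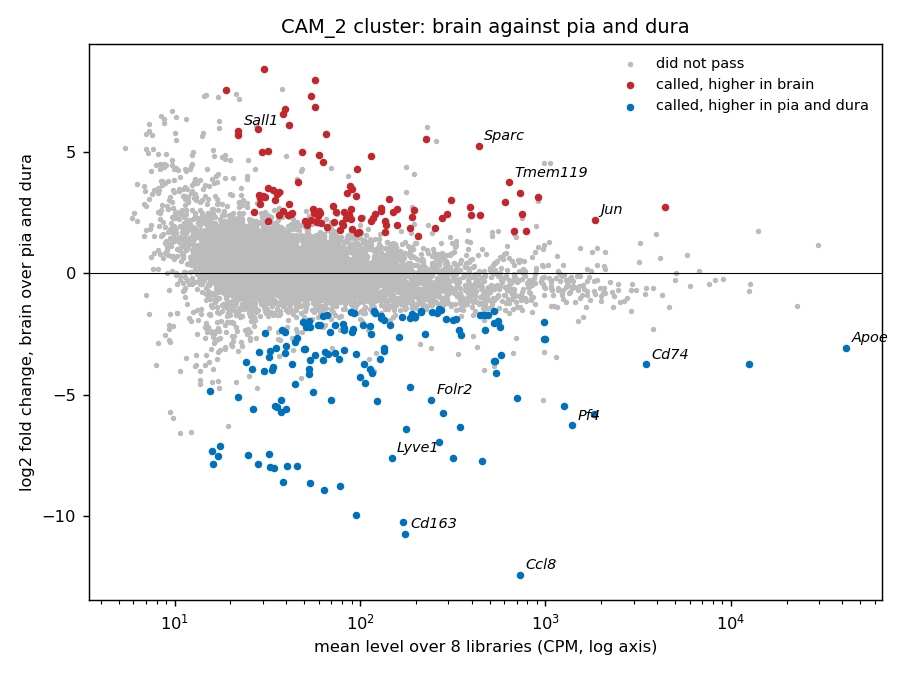
Log2 fold change of each tested gene in the CAM_2 cluster, brain over pia and dura, against its mean level over the 8 libraries in CPM. Red points are the 104 genes called higher in brain, blue points the 144 called higher in pia and dura, and grey points did not pass.

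Genes of border macrophages were lower in brain. Of 25 tested on a list of 26, 15 were lower (background 2.21%) and 1 was higher (background 1.6%), and their median was -4.09, or -4.01 with genes at 0 set to their bound. In the control and 24 h brain libraries together Lyve1 had 1 UMI, a pooled difference of 271-fold, exact 95% counting interval 48.4 to 10749, higher in pia and dura (edgeR adjusted p = 2.10e-04). Cd163 had none there and was at least 26.7-fold higher in pia and dura (edgeR adjusted p = 1.04e-04). Cd209f, a C-type lectin of border macrophages, was at 0, 0, 0 and 0.41 CPM in brain, 460.3 and 174 CPM in pia and 524 and 200.3 CPM in dura, at least 26-fold higher in pia and dura. Its relative Cd209b was at 0 in all brain libraries and at 97.7, 74.8, 37.4 and 96.8 CPM in pia and dura, at least 5.87-fold higher there. These 4 genes passed under every alternative.

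Folr2, a folate receptor of resident macrophages, was at 25.5, 10.4, 5.89 and 18.9 CPM in brain, 699.8 and 493 CPM in pia and 359 and 324 CPM in dura (log2 fold change -5.19, SE 0.50, edgeR adjusted p = 1.14e-04). Ccl24, a chemokine that draws eosinophils, was at 25.5, 12.5, 5.89 and 2.87 CPM in brain, 202 and 369.6 CPM in pia and 209.5 and 80.1 CPM in dura (log2 fold change -3.93, SE 0.57, edgeR adjusted p = 0.00237). Neither gene overlapped between brain and meninges, and both passed under every alternative. Pf4 itself had log2 fold change -6.24, SE 1.31, edgeR adjusted p = 0.0475, a call that was lost in 8 of 17 alternatives, among them without control brain or without any 1 of the pia or dura libraries. Apoe stood at 6409, 5016, 16688 and 51160 CPM in brain, 87136 and 49821 CPM in pia and 58797 and 60576 CPM in dura. Brain at 72 h thus lay within the range of pia and dura, and the other 3 brain libraries lay below it. Apoe had log2 fold change -3.05, SE 0.74, edgeR adjusted p = 0.0375, and its call was lost in 8 of 17 alternatives, with the same left-out libraries among them.

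**Figure D3:**
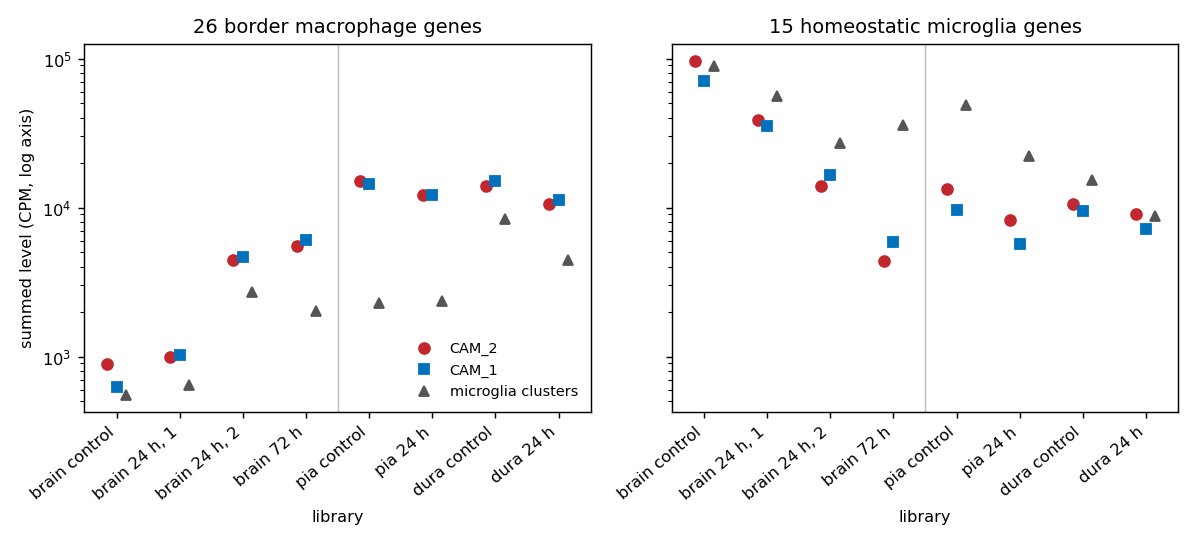
Summed level, in CPM on a log axis, of 26 border macrophage genes (left) and 15 homeostatic microglia genes (right) in each library for CAM_2, CAM_1 and the microglia clusters. In CAM_2 the border sum was 891 CPM in control brain and 14996 CPM in control pia, and the microglia sum was 96798 CPM in control brain and 4388 CPM in brain at 72 h.

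Genes of homeostatic microglia were higher in brain, 11 of 15 tested and none lower, with a median of 2.72. Sparc, a secreted matrix protein, was at 2215, 676, 477 and 43.1 CPM in brain, 28.4 and 17.6 CPM in pia and 15 and 26.7 CPM in dura (log2 fold change 5.26, SE 0.53, edgeR adjusted p = 1.66e-04) and was the only one of the named microglia genes that passed under every alternative. Tmem119 had log2 fold change 3.76, SE 0.75, edgeR adjusted p = 0.0256 and was lost in 6 of 17 alternatives. Sall1 had 2 UMIs in pia and dura and 34 in control and 24 h brain, a pooled difference of 24.2-fold, exact 95% counting interval 6.2 to 208, and was lost in 8 of 16. Slc2a5, a fructose transporter of microglia, had 1 UMI in pia and dura and 107 in control and 24 h brain, a pooled difference of 152-fold, exact 95% counting interval 26.7 to 6065 (edgeR adjusted p = 8.61e-04). Summed over the list, of which Cst3 was the most abundant, the microglia genes were at 96798, 38954, 13980 and 4388 CPM in brain, 13313 and 8274 CPM in pia and 10567 and 9004 CPM in dura in CAM_2, so brain at 72 h had the lowest sum of all.

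Of the genes with the largest differences whose libraries did not overlap, those higher in brain were led, by the fitted fold change, by Slc1a3. This place depends on the small count that edgeR adds. Slc1a3, a glutamate transporter, was at 163, 52, 23.5 and 3.69 CPM in brain, 0 and 0 CPM in pia and 0 and 0 CPM in dura, at least 6.55-fold higher in brain. Nav3, which encodes a neuron navigator protein, was at 61.1, 10.4, 76.5 and 3.28 CPM in brain, 0 and 0 CPM in pia and 0 and 0 CPM in dura, at least 4.07-fold higher. Adgrg1, an adhesion receptor, had 103 UMIs in control and 24 h brain and 2 in pia and dura, a pooled difference of 73.2-fold, exact 95% counting interval 19.8 to 613. Spint1, a protease inhibitor, was 69.7-fold, exact 95% counting interval 18.8 to 583, Gcnt2, a glycosyltransferase, 38.4-fold, exact 95% counting interval 10.1 to 325, and Adamts1, a secreted protease, 26.1-fold, exact 95% counting interval 8.47 to 130.3. Gcnt2 and Adamts1 were not highest in control brain but in replicate 2, at 141 and 94.2 CPM. The call of Nav3 was lost in 7 of 15 alternatives, that of Adamts1 in 5 of 17, Gcnt2 in 4 of 16, Spint1 in 2, and Slc1a3 and Adgrg1 in 1 each, without control brain for the last 2.

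Those lower in brain were led, by the fitted fold change, by Ccl8, a chemokine for monocytes and lymphocytes. Ccl8 was at 0, 0, 0 and 1.23 CPM in brain, 725 and 458 CPM in pia and 1923 and 2724 CPM in dura, so all its brain UMIs were in the 72 h library, and it was at least 112-fold higher in pia and dura. Fcna, a ficolin that binds microbial sugars, was at 0, 0, 0 and 5.75 CPM in brain, 239.6 and 282 CPM in pia and 44.9 and 194 CPM in dura, at least 14.5-fold higher (edgeR adjusted p = 8.61e-04). Rgs18, a regulator of G-protein signalling, was at 0, 0, 0 and 3.28 CPM in brain, 177 and 85.8 CPM in pia and 157 and 86.8 CPM in dura, at least 9.69-fold higher (edgeR adjusted p = 8.61e-04). The lowest dura or pia library was above the highest brain library for each of them. Pla2g2d, a secreted phospholipase, was at 0 in brain and at 85.1, 35.2, 382 and 124 CPM in pia and dura, at least 12-fold higher, and Cd209g was at least 8.25-fold higher there. All 5 passed under every alternative. Cfp (properdin, which stabilises the alternative complement pathway) and Gpx3 (a secreted glutathione peroxidase) did so too. Cfp was at 0, 4.16, 5.89 and 88.7 CPM in brain, 208 and 431 CPM in pia and 876 and 928 CPM in dura, a pooled difference of 154-fold, exact 95% counting interval 52.5 to 749 (edgeR adjusted p = 1.04e-04). Gpx3 was at 5.09, 2.08, 11.8 and 36.9 CPM in brain, 344 and 785 CPM in pia and 786 and 1673 CPM in dura (log2 fold change -7.71, SE 0.67, edgeR adjusted p = 1.04e-04). Neither overlapped between brain and meninges.

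Chemokine, antigen presentation and interferon genes were lower in brain where they passed. Of 15 cytokine and chemokine genes, 4 were lower (Ccl8, Cxcl1, Ccl7 and Ccl2) and none higher, with a median of -1.31. Ccl7, a monocyte chemokine, was at 30.5, 45.7, 153 and 74.7 CPM in brain, 1201 and 832 CPM in pia and 1048 and 962 CPM in dura (log2 fold change -4.12, SE 0.61, edgeR adjusted p = 0.00261) and passed under every alternative. Ccl2 was at 148, 419.9, 188 and 193 CPM in brain, 1072 and 805 CPM in pia and 509 and 881 CPM in dura and had log2 fold change -2.04, SE 0.50, edgeR adjusted p = 0.0379, so its libraries also did not overlap, but 8 of 17 alternatives lost it. Cxcl1, a neutrophil chemokine, had a pooled difference of 32.3-fold, exact 95% counting interval 5.52 to 1305 (edgeR adjusted p = 0.0131), and was lost in 6 of 16. Of 7 MHC class II genes, 2 were lower (median -2.91). Cd74, the invariant chain that guides class II molecules, was at 326, 551, 677 and 749 CPM in brain, 4319 and 2781 CPM in pia and 9953 and 8453 CPM in dura (log2 fold change -3.73, SE 0.58, edgeR adjusted p = 0.00322). H2-Ab1, a class II chain, was at 45.8, 43.7, 159 and 293 CPM in brain, 738 and 345 CPM in pia and 1429 and 1169 CPM in dura (log2 fold change -3.59, SE 0.61, edgeR adjusted p = 0.0048). Dura thus had the highest and brain the lowest levels of both, and each was lost in 3 of 17 alternatives, among them without control brain and without dura at 24 h.

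Of 14 interferon response genes, 5 were lower in brain (Oas1a, Irf7, Ifit3, Oasl2 and Rtp4), none higher, and the median was -2.39. Irf7, the transcription factor that amplifies type I interferon, was at 15.3, 6.24, 29.4 and 56.2 CPM in brain, 189 and 94.6 CPM in pia and 195 and 66.8 CPM in dura (log2 fold change -3.13, SE 0.57, edgeR adjusted p = 0.00737). Oas1a, an antiviral oligoadenylate synthetase, was at 15.3, 6.24, 23.5 and 46.8 CPM in brain, 129 and 68.2 CPM in pia and 179.6 and 117 CPM in dura (log2 fold change -3.27, SE 0.54, edgeR adjusted p = 0.0042). Each brain library lay below each pia and dura library for both. Ifit3, an interferon-induced protein, had a log2 fold change of -3.10 (edgeR adjusted p = 0.0319), and Oasl2, of the oligoadenylate synthetase family, had -2.64 (edgeR adjusted p = 0.0375). Alternatives lost the call of Oas1a in 3, Irf7 in 4, Ifit3 in 8 and Oasl2 in 9 of 17 cases. No MHC class I gene passed of 9 tested.

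Lipid handling genes were mixed, with 6 lower and 1 higher of 21 tested and a median of -0.42. Apoc2, the cofactor of lipoprotein lipase, was at 5.09, 10.4, 5.89 and 1.64 CPM in brain, 28.4 and 145 CPM in pia and 52.4 and 177 CPM in dura (log2 fold change -4.16, SE 0.58, edgeR adjusted p = 0.00156) and passed under every alternative. Cd36, a scavenger receptor for oxidised lipid, was at 0, 10.4, 41.2 and 25 CPM in brain, 119.8 and 90.2 CPM in pia and 322 and 230.4 CPM in dura (log2 fold change -3.72, SE 0.70, edgeR adjusted p = 0.0118). Igf1, a growth factor, was at 0, 20.8, 23.5 and 13.1 CPM in brain, 136 and 55 CPM in pia and 337 and 180.3 CPM in dura (log2 fold change -3.33, SE 0.68, edgeR adjusted p = 0.0188). No brain library reached the lowest pia or dura library for these 3. Cd9, a tetraspanin, was the member higher in brain, at 2459, 3172, 542 and 284 CPM in brain, 145 and 396 CPM in pia and 172 and 137 CPM in dura (log2 fold change 3.13, SE 0.62, edgeR adjusted p = 0.0169), with brain at 72 h inside the range of pia and dura. The calls of Cd36 and Igf1 were lost in 5 and that of Cd9 in 6 of 17 alternatives. Of 17 scavenger, phagocytic and Fc receptor genes 6 were lower, among them Timd4, a receptor for phosphatidylserine on dying cells, at 0 in brain and at least 5.03-fold higher in pia and dura under every alternative, and Colec12, a scavenger receptor, at a pooled difference of 57.7-fold, exact 95% counting interval 10.1 to 2305. Of 10 alternative activation genes 4 were lower (Cd163, Folr2, Ccl24 and Igf1) and none higher. Of 29 lysosome genes 2 were higher in brain, among them Ctsl, a cathepsin protease with log2 fold change 1.76, SE 0.41, edgeR adjusted p = 0.0305 that was lost in 7 of 17 alternatives. Sterol synthesis and heat shock genes had no call among 10 and 9 tested.

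Immediate early genes, which respond within minutes to stimulation and also to tissue dissociation, were higher for 3 and lower for 1 of 18 tested, with a median of 0.94. Jun, a subunit of the AP-1 transcription factor, was at 4561, 3037, 3119.8 and 1274 CPM in brain, 1148 and 515 CPM in pia and 561 and 591 CPM in dura (log2 fold change 2.22, SE 0.46, edgeR adjusted p = 0.0164). Klf6, a zinc finger transcription factor, was at 825, 1239, 1483 and 723 CPM in brain, 337 and 326 CPM in pia and 239 and 237 CPM in dura (log2 fold change 1.76, SE 0.41, edgeR adjusted p = 0.0304). Brain lay above pia and dura in all 4 libraries for both. Egr1 had log2 fold change 2.44, SE 0.48, edgeR adjusted p = 0.013, and Nr4a1, an orphan nuclear receptor, was the one that was lower, with log2 fold change -2.28, SE 0.54, edgeR adjusted p = 0.0333. The calls of Jun, Klf6 and Nr4a1 were lost in 7 and that of Egr1 in 5 of 17 alternatives. Whether sorting or dissociation differed between the tissues was not tested.

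Of 18 myeloid transcription factors 3 were higher in brain, among them Sall1 and Bhlhe41, and none lower. Bhlhe41, a transcriptional repressor, was at 199, 227, 82.4 and 49.7 CPM in brain, 63 and 19.8 CPM in pia and 37.4 and 23.4 CPM in dura (log2 fold change 2.28, SE 0.49, edgeR adjusted p = 0.0217). Of 12 growth factor and receptor genes 2 were higher, Csf1, the growth factor of macrophages, and Tgfbr1, a receptor for TGF-beta that microglia need. Csf1 was at 5.09, 220.4, 253 and 4.51 CPM in brain, 3.15 and 35.2 CPM in pia and 0 and 0 CPM in dura (log2 fold change 5.75, SE 0.85, edgeR adjusted p = 0.00302), so the 24 h brain libraries stood out and the control and 72 h libraries were within the range of pia. Tgfbr1 had log2 fold change 2.60, SE 0.39, edgeR adjusted p = 0.00261 and was lost only without control brain. Gas6, the bridging ligand of Axl and Mertk, was lower, at 137, 116, 188 and 63.2 CPM in brain, 946 and 464 CPM in pia and 464 and 270.4 CPM in dura (log2 fold change -1.87, SE 0.42, edgeR adjusted p = 0.0275). The complement gene C4b was lower too, by a pooled 41.7-fold, exact 95% counting interval 14 to 204 (edgeR adjusted p = 0.00421), and Hk2, a hexokinase, was higher (log2 fold change 1.98, SE 0.44, edgeR adjusted p = 0.0244). Alternatives lost the calls of Gas6 in 8, Hk2 in 7, Bhlhe41 in 6, Csf1 in 4 and C4b in 2 of 17 cases.

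Markers of other cells moved with tissue in a few cases. Of 8 neutrophil genes, Csf3r, the receptor for G-CSF that microglia also express, was higher in brain (log2 fold change 1.92, SE 0.42, edgeR adjusted p = 0.0218), and the granule genes Ngp (log2 fold change -3.31, SE 0.55, edgeR adjusted p = 0.00468) and Mmp9 (pooled 50.6-fold, exact 95% counting interval 8.8 to 2027, edgeR adjusted p = 0.0176) were lower. Ngp was at 10.2, 12.5, 5.89 and 3.69 CPM in brain, 34.7 and 28.6 CPM in pia and 149.7 and 294 CPM in dura, and the neutrophil sum was highest in dura, at 561 and 845 CPM. Of 3 dendritic genes, Fscn1, an actin-bundling protein, was higher in brain (log2 fold change 2.01, SE 0.47, edgeR adjusted p = 0.0334). Fscn1 also led this list in the microglia clusters. Cd209a was at least 5.27-fold lower in brain and called so under every alternative. Monocyte (10 tested), B cell (4), red blood cell (4), T and NK cell (1) and neural (3) genes had no call. Cell cycle genes had none of 8.

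Dura and pia differed by 1 call of 6508 genes (0.0154%), with 99 genes at an unadjusted p under 0.05 and 0 calls by DESeq2. The gene was Ctsk, cathepsin K, a collagen-degrading protease of osteoclasts and activated macrophages. Ctsk was at 0, 0, 5.89 and 16.4 CPM in brain, 0 and 0 CPM in pia and 22.5 and 521 CPM in dura, at least 33.8-fold higher in dura against the floor of 3 UMIs per library over pia (edgeR adjusted p = 0.0361). Dura at 24 h carried nearly all of it, and the call was lost in 7 of 13 alternatives, among them without control dura, without control brain and without pia at 24 h. None of the 27 tested lists had a member called. Pf4 was at similar levels in both, at 3342 and 2127 CPM in pia and 3143 and 2063 CPM in dura. Lyve1, at 404 and 429 CPM in pia and 247 and 100.2 CPM in dura, had its lower levels in dura and did not pass. The MHC class II sum was higher in both dura libraries, at 13957 and 11535 CPM, than in pia, at 6494 and 3869.5 CPM, with 0 of 7 genes called. Without brain at 24 h replicate 2, 42 genes were called between dura and pia.

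At 24 h after stroke, 1 of 6508 genes passed against control over brain, pia and dura (0.0154%), and 435 had an unadjusted p under 0.05. DESeq2 called 5 genes. The gene was Saa3, an acute-phase serum amyloid A protein that macrophages make on stimulation. Saa3 was at 0, 10.4, 11.8 and 74.3 CPM in brain, 0 and 2026 CPM in pia and 0 and 124 CPM in dura. It was at 0 in all 3 control libraries and present in all libraries after stroke (edgeR adjusted p = 0.00337). Its mean over the 24 h libraries was at least 34.5-fold above the floor of 3 UMIs per library over the controls, and at least 3.09-fold without pia at 24 h. The brain levels at 24 h were below the floor of control brain, 15.3 CPM, so no bound holds in brain. The call was lost in 6 of 17 alternatives, among them without any 1 pia or dura library. Pf4, Lyve1 and Apoe did not pass. Pf4 was lower at 24 h than in control in pia (2127 against 3342 CPM) and in dura (2063 against 3143 CPM), and Apoe was lower in pia (49821 against 87136 CPM) and about level in dura (60576 against 58797 CPM), each from 1 library a condition. No listed gene passed in any of the 27 lists. The 15 microglia genes all had fold changes below 0, with a median of -1.12 beside 0.11 over all genes. The 10 monocyte genes tested had a median of 1.92 (1.74 with genes at 0 set to their bound), and 9 were above 0. All 4 red blood cell genes were above 0, with a median of 6.98, or 3.45 at the bound. The part of these other cells was not tested. The test of whether the 24 h effect differed between brain and meninges called 0 of 6508 genes (0%), with 109 at an unadjusted p under 0.05 and 0 by DESeq2. It called 655 genes (343 above and 312 below 0) without brain at 24 h replicate 1, 32 without replicate 2 and 35 in the libraries with the longer gene list.

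The 2 brain libraries at 24 h weighed on this result. They differed in the markers above, and without replicate 2, 179 of 6070 genes were higher at 24 h (2.95%) and 109 lower (1.8%), with an all-gene median of 0.00. Without replicate 1 instead, 30 of 6332 genes were higher and 8 lower. The values that follow, unless said otherwise, are from the fit without replicate 2, which rests on replicate 1, pia and dura with their controls. In it, 7 of 15 microglia genes fell (P2ry12, Siglech, Gpr34, Sparc, Selplg, Slc2a5 and Tgfbr1), with P2ry12 at a log2 fold change of -2.22 (edgeR adjusted p = 0.0373). In each tissue P2ry12 was lower at 24 h than in control. Iron, heme and oxidant defence genes rose for 5 and fell for 1 of 15. Slc7a11, the cystine transporter, was at 0, 281, 88.3 and 17.2 CPM in brain, 6.3 and 70.4 CPM in pia and 7.48 and 33.4 CPM in dura (edgeR adjusted p = 1.52e-05), with 3 UMIs in all controls together. Srxn1, sulfiredoxin, was at 5.09, 191, 47.1 and 24.6 CPM in brain, 18.9 and 66 CPM in pia and 22.5 and 26.7 CPM in dura (log2 fold change 2.48, SE 0.51, edgeR adjusted p = 0.00411). Both were above the control of their tissue in every library at 24 h. Txnrd1, thioredoxin reductase, had log2 fold change 1.67, SE 0.51, edgeR adjusted p = 0.0439. Slc40a1, the iron exporter ferroportin, was the one that fell (log2 fold change -1.44, SE 0.30, edgeR adjusted p = 0.00282).

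Without replicate 2, Spp1, the secreted phosphoprotein osteopontin, also rose (log2 fold change 4.73, SE 0.52, edgeR adjusted p = 1.96e-04). Spp1 was at 5.09, 713, 500.4 and 1778 CPM in brain, 28.4 and 871 CPM in pia and 29.9 and 104 CPM in dura, with every library after stroke above the control of its tissue. Apoc2 and Cd63 were the other lipid handling genes that rose, of 21 tested. Alternative activation genes rose for 3 of 10, among them Tgm2, a transglutaminase (log2 fold change 2.83, SE 0.62, edgeR adjusted p = 0.00474), and Il4ra, the IL-4 receptor chain (log2 fold change 1.86, SE 0.27, edgeR adjusted p = 5.88e-05). Interferon response genes fell for 3 of 14, among them Ifit3 and Irf7, and border genes rose for 2 (Cd38 and Tgfbi) and fell for 3 (Maf, Cd209f and Igfbp4) of 25. Hemoglobin genes rose for 2 of 3 (Hbb-bs and Hba-a2), and of the control and 24 h libraries in this fit only dura at 24 h had Hbb-bs UMIs. None of these genes passed with all libraries. Of the 25 genes named here as having risen or fallen without replicate 2, 7 were also called without replicate 1, namely Slc7a11, Slc40a1, Slc2a5, Spp1, Tgm2, Hbb-bs and Hba-a2, and 18 were not, among them P2ry12 (edgeR adjusted p = 0.543) and Srxn1 (edgeR adjusted p = 0.445).

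**Figure D4:**
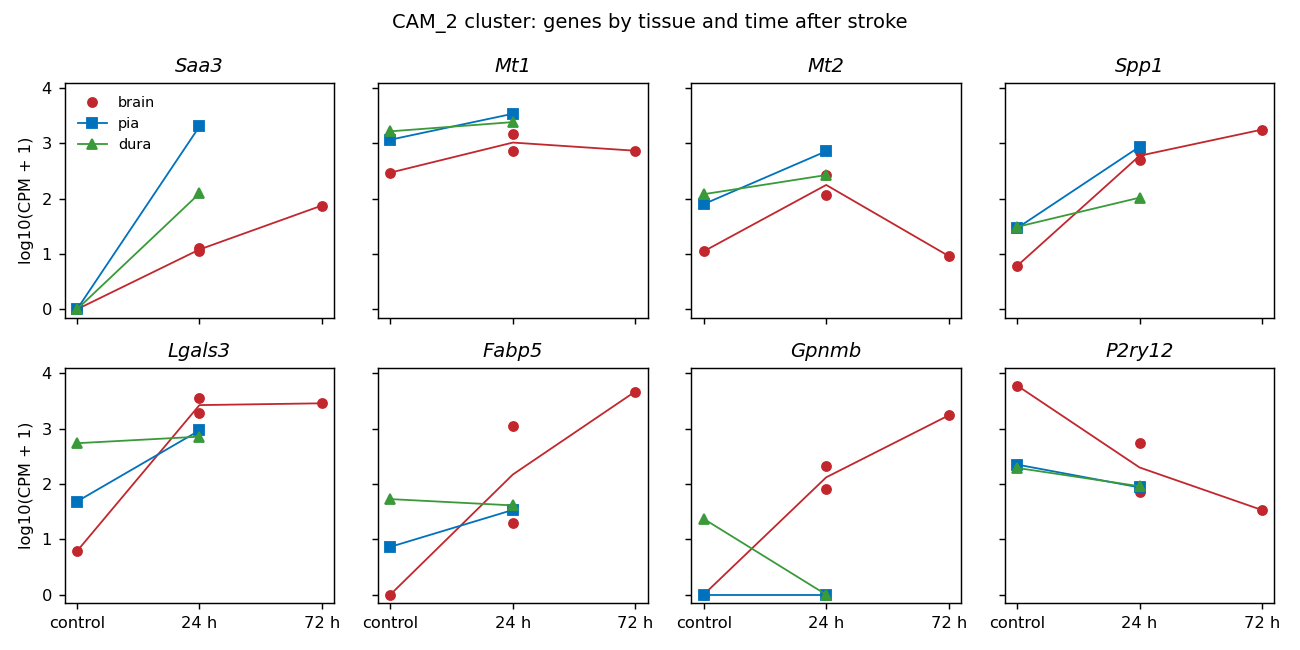
Levels of selected genes in the CAM_2 cluster by time after stroke, as log10(CPM + 1), 1 point per library and lines joining the libraries of a tissue, with the brain line through the mean of both libraries at 24 h. Spp1 was above its control in every library after stroke, and Saa3 was 0 in the 3 controls.

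At 72 h against 24 h in brain, 11 of 6508 genes were called (0.169%), 3 higher and 8 lower, from 1 library at 72 h whose spread was taken from the other libraries of all tissues. A difference of this library cannot be told apart from one of time. Without replicate 2 of brain at 24 h the calls were 2330, 1345 higher and 985 lower, and after thinning to 500 UMIs per cell 45 were higher and 35 lower. Cfp was higher at 72 h (edgeR adjusted p = 0.0418), from 4.16 and 5.89 CPM at 24 h, 3 UMIs in all, to 88.7 CPM at 72 h. Apoc1, an apolipoprotein of lipid-laden macrophages, was higher (log2 fold change 4.01, SE 0.71, edgeR adjusted p = 0.0483), from 10.4 and 11.8 to 136 CPM. Msrb1, which repairs oxidised methionine, was higher too (log2 fold change 3.22, SE 0.57, edgeR adjusted p = 0.0483). Csf1 was lower (log2 fold change -5.33, SE 0.80, edgeR adjusted p = 0.0418), from 220.4 and 253 to 4.51 CPM. Sult1a1, a sulfotransferase, went from 31 and 5 UMIs at 24 h to 1 at 72 h. The other 6 that were lower were Fscn1 (log2 fold change -5.51), Tspan7, a tetraspanin (-5.45), Cadm1, an adhesion molecule (-5.21), St3gal6, a sialyltransferase (-4.57), Pmp22, a membrane protein of myelin (-4.5), and Crybb1, a crystallin found in microglia (-4.09). Each of these 11 calls was lost without any 1 of control brain and the pia and dura libraries.

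Among genes that did not pass at 72 h, the values differed by the library they were set against. Apoe had a log2 fold change of 2.70 (edgeR adjusted p = 0.354) and Pf4 of 2.80 (edgeR adjusted p = 0.592). From replicate 2, which shares the gene list of the 72 h library, Apoe went from 16688 to 51160 CPM and Pf4 from 141 to 264 CPM, with no test. Gpnmb, a glycoprotein of lipid-laden macrophages, was at 0, 81.1, 212 and 1742 CPM in brain, 0 and 0 CPM in pia and 22.5 and 0 CPM in dura. Fabp5, a fatty acid binding protein, was at 0, 18.7, 1118 and 4708 CPM in brain, 6.3 and 33 CPM in pia and 52.4 and 40.1 CPM in dura. Both were thus highest in brain at 72 h and next in replicate 2. The monocyte sum had the same order, at 4772 CPM at 72 h and 2143 CPM in replicate 2. All 10 monocyte genes tested had fold changes above 0 at 72 h against 24 h (median 2.39). None of 15 microglia genes did (median -2.72), and no gene of either list was called. The part of monocytes was not tested. After thinning to 1000 UMIs, 57.3% of CAM_2 cells at 72 h had a Gpnmb UMI (interval 53.3 to 61.2%) and 69.6% a Fabp5 UMI (65.9 to 73.2%), against 0.709% and 5.91% of lymphoid cells of that library. The study names both genes among the top markers of its stroke-associated myeloid cells (SAMC), a cluster of 485 cells in this library. Shares in other myeloid clusters are not given here, so these values do not set CAM_2 apart from them. The study labels brain at 72 h and dura at 24 h as kit version 3 and the other 6 libraries as version 2. The barcodes go against these labels, since dura at 24 h shared only 1 barcode with brain at 72 h and 12 to 27 with each of the libraries labelled version 2 other than replicate 2. Replicate 2 shared 8 with brain at 72 h and 0 with the other 6. What counts with kit version mean is therefore in doubt. With kit version as a term, which dura at 24 h alone ties to the version 2 libraries, 0 genes were called at 72 h, and with the barcode set in its place 131.

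Within each library, CAM_2 was set beside CAM_1, the other cluster named for CNS-associated macrophages, as a description with no test, since the clusters were made from these genes. Of 1686 genes with a mean of at least 100 CPM in the higher class, 265 had a higher and 155 a lower CPM in CAM_2 in all 8 libraries, or 176 and 124 of 1741 after thinning to 500 UMIs. The sign was read from the CPM, while the log2 ratios below have 0.5 UMIs added in both clusters. The genes that were lower were led by inflammatory genes. Cxcl2, a neutrophil chemokine, had a mean log2 ratio of -3.25 ± 0.49 (SD over 8 libraries), Ccl7 of -3.21 ± 0.82, Il1b, the cytokine interleukin-1 beta, of -2.82 ± 1.19, and Ccl2 of -2.67 ± 0.51. Ccl12 followed with -2.58 ± 1.09 and Il1a with -2.56 ± 1.48, then Gadd45g, Phlda1, Nfkbiz and Ccl4 between -2.18 and -2.02. Il1b in CAM_2 was at 0, 12.5, 41.2 and 48 CPM in brain, 44.1 and 48.4 CPM in pia and 52.4 and 76.8 CPM in dura. In CAM_1 of the same libraries Il1b was at 2.62, 50, 374 and 232 CPM in brain, 761 and 907 CPM in pia and 418 and 904 CPM in dura.

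Those higher in CAM_2 were led by Apoe at 1.17 ± 1.19 and Tnfaip8l2, a negative regulator of immune signalling, at 1.11 ± 0.57. The next 8 (0610012G03Rik, Tomm5, Gpsm3, Dstn, Syngr1, Prelid1, Lgals1, which encodes galectin 1, and Lyz2, lysozyme) lay between 0.82 and 0.91. After thinning, Tomm5, Dstn, Syngr1 and Prelid1 were higher in only 7 libraries. The border sums of both clusters were of similar size in each library, 891, 998, 4415 and 5488 CPM in brain, 14996 and 12174 CPM in pia and 13882 and 10560 CPM in dura in CAM_2 and 624, 1029, 4685 and 6093 CPM in brain, 14490 and 12182 CPM in pia and 15073 and 11280 CPM in dura in CAM_1. So CAM_1, too, had lower sums of these genes in brain than in the meninges. Depth differed between the clusters, with medians of 750 and 2275.5 UMIs per cell in control pia and 3687.5 and 2128.5 in brain at 72 h for CAM_2 and CAM_1, and its part in the ratios was not tested beyond thinning.

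**Figure D5:**
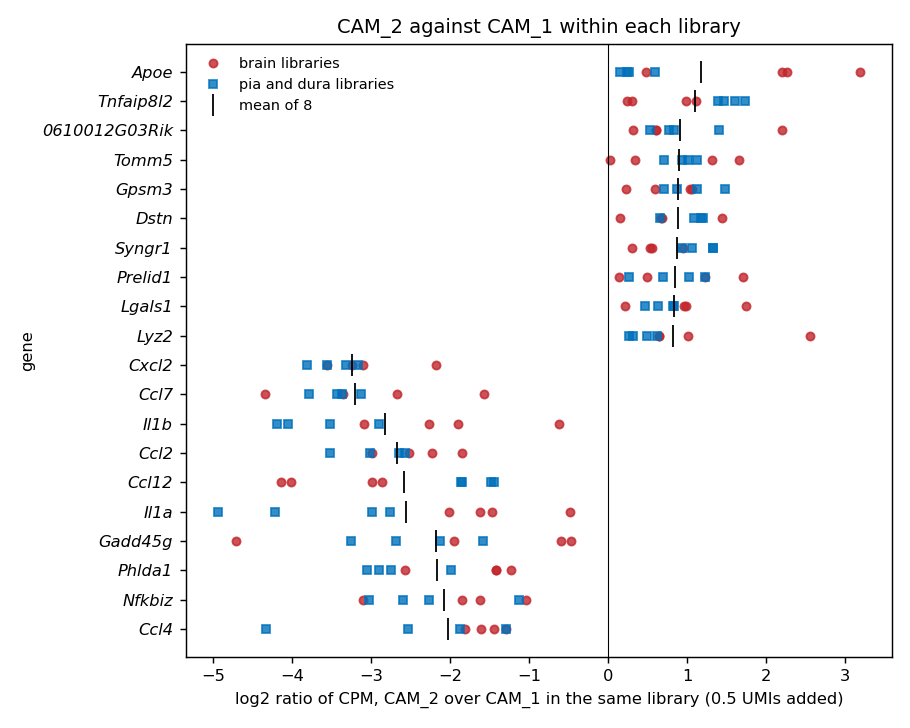
Log2 ratio of CPM in CAM_2 over CAM_1 of the same library for the 20 genes with the highest and lowest mean ratio among those with a higher, or a lower, CPM in CAM_2 in all 8 libraries, with 0.5 UMIs added. Circles are brain and squares pia and dura libraries, and the bar is the mean. Cxcl2, Ccl7 and Il1b lay below 0 and Apoe above 0 in all 8 libraries.

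The difference between brain and meninges was then tested for being unlike in CAM_2 and CAM_1, with library as a block. The value tested is the log2 fold change of brain over meninges in CAM_2 minus that in CAM_1. It is signed, so a gene that is less far below the meninges in brain of CAM_2 than of CAM_1 also has a value above 0. Of 8466 genes, 90 were called with a value above 0 (1.06%) and 8 with one below 0 (0.0945%). These 98 calls fell to 20 (14 above and 6 below) without dura at 24 h and to 15 (10 and 5) with DESeq2. They fell to 24 after thinning and to 4 in the libraries labelled kit version 2. They rose to 148 with the longer gene list, 147 with the barcode set as a term and 143 without brain at 24 h replicate 2. With library size alone they were 52 and 16. Apoe, which was lower in brain in both clusters, had a value of 2.46 (SE 0.41, edgeR adjusted p = 2.44e-06) and kept its call in 16 of 17 alternatives. CAM_1 had Apoe at 1329, 548, 3612 and 36604 CPM in brain, 57784 and 41583 CPM in pia and 49969 and 54735 CPM in dura. CAM_2 thus exceeded CAM_1 more in control and 24 h brain than in the meninges. In brain at 72 h the log2 ratio of CAM_2 over CAM_1 was 0.48, below 0.59 in control pia. Il1a had 2.66 (SE 0.45, edgeR adjusted p = 3.59e-06), also kept in 16 of 17. Il1a was at 86.5, 79, 100.1 and 5.75 CPM in brain, 59.9 and 41.8 CPM in pia and 0 and 10 CPM in dura in CAM_2 and at 246, 246, 141 and 23 CPM in brain, 419 and 340.1 CPM in pia and 114 and 217 CPM in dura in CAM_1. Lpl, lipoprotein lipase, went the other way with -3.83 (SE 0.41, edgeR adjusted p = 6.14e-17). Lpl was at 15.3, 468, 224 and 23.8 CPM in brain, 6.3 and 77 CPM in pia and 74.8 and 100.2 CPM in dura in CAM_2 and at 41.9, 963, 1639 and 91.9 CPM in brain, 2.92 and 6.0 CPM in pia and 32.3 and 41.3 CPM in dura in CAM_1, so CAM_2 was below CAM_1 in brain and above it in the meninges. Its call was lost without pia at 24 h.

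By list, iron, heme and oxidant defence genes had 4 values above 0 of 16 tested and none below among those called (median 0.45, all genes 0.14). These were Txnrd1 with 2.66 (edgeR adjusted p = 2.44e-06), Srxn1 with 2.54 (edgeR adjusted p = 2.02e-06), Hmox1, heme oxygenase 1, with 1.59 (edgeR adjusted p = 0.00228) and Slc7a11 with 1.46 (edgeR adjusted p = 0.0246). Txnrd1 was at 15.3, 54, 177 and 164 CPM in brain, 12.6 and 39.6 CPM in pia and 7.48 and 26.7 CPM in dura in CAM_2 and at 7.86, 54.6, 95.7 and 161 CPM in brain, 59.2 and 129.9 CPM in pia and 92.7 and 110.1 CPM in dura in CAM_1. It was thus lower in CAM_2 than in CAM_1 in all pia and dura libraries, while brain showed no such gap. Slc7a11 did not show this in its means over the libraries. Its mean log2 ratio of CAM_2 over CAM_1 was -1.18 ± 1.21 over the 4 brain libraries and -0.80 ± 1.03 over pia and dura (SD), the opposite direction to the fitted value. The brain mean includes the 72 h library, which does not enter the fitted value, so mean and fit rest on unlike libraries. Lipid handling genes had 2 called values above 0 (Apoe and Fabp5) and 2 below (Lpl and Cd9) of 23, cytokines 2 above (Il1a and Nlrp3) and 1 below (Ccl12) of 19. Ccr2 was the monocyte gene with a value above 0 (3.15, edgeR adjusted p = 0.00571) of 10, Ms4a7 the border gene of 26, Igkc the B cell gene of 4, and Tmem119 the microglia gene with a value below 0 of 15. The mean log2 ratio of Ccr2 to CAM_1 was 2.05 ± 1.72 over the 4 brain libraries and 1.63 ± 1.72 over pia and dura. These means lay closer together than the fitted value gives, but here too the brain mean includes the 72 h library. Txnrd1 was lost in 3, Srxn1 in 7, Hmox1 in 8, and Ccr2 and Fabp5 in 9 of 17 alternatives, both of the latter without replicate 2. Slc7a11 was lost in 12 and changed its sign in 1. Without replicate 2 the sign of Igkc reversed, to -2.03.

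Against the microglia clusters of the same library (Micro_1, Micro_2, Micro_3 and stress_Micro summed), 274 genes had a higher and 217 a lower CPM in CAM_2 in all 8 libraries of 1821 with at least 100 CPM in the higher class, or 139 and 161 of 1850 after thinning to 500 UMIs. By mean log2 ratio, those that were higher were led by Ms4a7, a membrane protein of border macrophages, at 3.5 ± 1.75, Folr2 at 3.31 ± 2.31 and Lgals1 at 3.07 ± 1.31, followed by Wfdc17, Pf4, Gpx3, Apoe, Lyz2, S100a6 and Vim. Pf4 was at 0.819, 2.23, 1.31 and 7.93 CPM in brain, 298 and 236 CPM in pia and 2158 and 801 CPM in dura in the microglia clusters. It was higher in CAM_2 of every library, at 5.09 against 0.819 CPM in control brain, but of only 7 libraries after thinning to 500 UMIs. Ms4a7, Folr2 and Gpx3 were also higher in only 7 after thinning, and S100a6 and Vim in 6. The Pf4 level of CAM_2 in control brain and replicate 1 was below the floor of 3 UMIs, 15.3 and 6.24 CPM. Those that were lower were led by Ccl4 (-3.34 ± 1.97), Gem (-3.25 ± 1.88) and Serpine2 (-3.16 ± 2.23), followed by Cxcl10, Il1a, Egr1, Sparc, Nfkbiz, Ccl3 and Btg2. After thinning, Cxcl10 was higher in CAM_2 in 1 library and Sparc in 2. P2ry12 in the microglia clusters was at 7265, 3183, 389 and 560.2 CPM in brain, 2632 and 567 CPM in pia and 517 and 127 CPM in dura, against 6038 CPM in CAM_2 of control brain.

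Against microglia, the same signed value was called above 0 for 66 of 8875 genes (0.744%) and below 0 for 26 (0.293%). These 92 calls fell to 8 (7 above and 1 below) without dura at 24 h and to 30 (25 and 5) with DESeq2. They fell to 12 after thinning and to 5 in the libraries labelled kit version 2, and with library size alone they were 122 and 13. They rose to 197 with the longer gene list and to 181 with the barcode set as a term. Without brain at 24 h replicate 2 they were 192 (102 above and 90 below). The same 4 oxidant defence genes were called above 0, of 16 tested. Srxn1 had 3.12 (edgeR adjusted p = 0.00352), Slc7a11 2.65 (edgeR adjusted p = 0.00241), Txnrd1 2.38 (edgeR adjusted p = 0.0047) and Hmox1 1.67 (edgeR adjusted p = 0.0047). Hmox1 in CAM_2 was at 56, 231, 353 and 406 CPM in brain, 372 and 548 CPM in pia and 262 and 401 CPM in dura, and in the microglia clusters at 95.7, 96.3, 116 and 128 CPM in brain, 1054 and 2325 CPM in pia and 547 and 479 CPM in dura. Hmox1 was thus lower in brain than in the meninges by more in the microglia clusters than in CAM_2, which gives the value above 0. These comparisons share the CAM_2 libraries with those against CAM_1. Cytokine genes had 5 values above 0 (Il6, Il1a, Ccl4, Ccl3 and Cxcl2) and 1 below (Ccl8) of 19, lipid handling genes 3 above (Cst7, Lgals3 and Cd9) of 23, border genes 3 above (Clec10a, Ms4a7 and F13a1) and 1 below (Stab1) of 26, and scavenger and Fc receptor genes 2 below (Fcgrt and Stab1) of 18. Sparc was the microglia gene with a value above 0 (2.64, edgeR adjusted p = 9.73e-06) of 15. Without replicate 2 the signs of Clec10a (-3.35) and F13a1 (-5.50) reversed, and without dura at 24 h those of Lgals3 (-0.26) and Slc7a11 (-1.61). Srxn1 changed sign after thinning (-0.10), and Txnrd1 and Hmox1 lost their calls in 6 and 7 of 17.

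The 24 h effect differed from that of CAM_1 in 2 of 8466 genes (0.0236%) and from that of microglia in 1 of 8875 (0.0113%). Mt2, a metallothionein that binds zinc and copper and is induced by metals and glucocorticoids, was in both. Mt2 in CAM_2 was at 10.2, 264, 118 and 8.21 CPM in brain, 78.8 and 722 CPM in pia and 119.7 and 267 CPM in dura. In CAM_1 Mt2 was at 39.3, 238, 146 and 20.9 CPM in brain, 796 and 991 CPM in pia and 1175 and 1091 CPM in dura, and in the microglia clusters at 16.2, 37, 39.6 and 69 CPM in brain, 188 and 211 CPM in pia and 304 and 239.6 CPM in dura. Its level was higher at 24 h than in control in CAM_2 of every tissue, and this difference was larger than in CAM_1 by 2.16 (SE 0.42, edgeR adjusted p = 0.00134) and than in microglia by 2.53 (SE 0.45, edgeR adjusted p = 1.97e-04) on the log2 scale. The call against CAM_1 was lost in 6 of 17 alternatives and that against microglia in 3. The second gene against CAM_1 was Hbb-bs (edgeR adjusted p = 0.00134), which had UMIs in 3 CAM_2 libraries and was lost without either dura library.

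Mt1, the neighbouring metallothionein gene, was chosen after its values were seen. Mt1 was at 295, 1480.1, 724 and 736 CPM in brain, 1166 and 3436 CPM in pia and 1654 and 2427 CPM in dura in CAM_2, higher at 24 h than in control in each tissue, as Mt2 was. Both genes lie in tandem, and the 250 bases before each start are shown because metallothionein promoters are known for metal response elements. Capitals mark matches to the letters TGCACNC or TGCGCNC on either strand.
Mt2, GRCm38.p6 chr8:94172368-94172617, plus strand: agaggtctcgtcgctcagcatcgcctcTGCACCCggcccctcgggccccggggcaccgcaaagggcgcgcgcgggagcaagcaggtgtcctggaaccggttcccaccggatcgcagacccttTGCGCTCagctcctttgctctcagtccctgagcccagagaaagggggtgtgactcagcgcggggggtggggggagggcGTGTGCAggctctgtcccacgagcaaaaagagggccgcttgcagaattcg
Mt1, GRCm38.p6 chr8:94178839-94179088, plus strand: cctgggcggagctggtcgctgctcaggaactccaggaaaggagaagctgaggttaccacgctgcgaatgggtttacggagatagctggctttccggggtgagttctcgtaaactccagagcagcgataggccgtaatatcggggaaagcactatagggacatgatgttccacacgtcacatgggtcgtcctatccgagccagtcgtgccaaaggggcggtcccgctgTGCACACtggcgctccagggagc
The Mt2 window (RefSeq) held 3 matches, starting 223, 128 and 50 bases before the gene's start, and the Mt1 window 1 match at 23 bases. At least 1 match was found in 7032 of 32851 windows of the same kind (21.4%) and 3 or more in 415 (1.26%). A match is a description of letters, and binding was not measured. Bases after the annotated starts were not searched and other starts were not considered, so the counts do not rank these promoters.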

How the data were processed

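The files of 8 scRNA-seq libraries were analysed. Per the labels, the authors made the deposited UMI counts per gene and barcode with Cell Ranger v6.0 on mm10. The authors removed cells by gene number and mitochondrial share and doublets with scDblFinder, and their deposited annotation gave the clusters. Total counts were 6591898 to 20754181 UMIs per library. Of 30406 gene identifiers shared by both gene lists, 597 carry different symbols, so genes were joined by identifier. UMIs were summed per library and class with at least 30 cells and tested with edgeR 4.0.16 (filterByExpr with a minimum count of 10, TMM, robust glmQLFit, glmQLFTest, two-sided) in R 4.3.3, with tissue and time as terms. Between clusters, library was a block and the class by tissue or time term was tested. The study states that experiments were repeated and pooled by compartment, but not whether the 2 brain libraries at 24 h came from separate animals, so p-values measure the spread between libraries, which may be technical. Intervals are exact 95% intervals and cover counting error only, as do floors of 3 UMIs. For ratios 0.5 UMIs were added, and whether a gene was higher in all libraries was read from the CPM without them, a choice made after the ratios were seen. Leaving the 72 h library out of the ratios and bounds between brain and meninges was also chosen after the values were seen.

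By rule the named genes are Pf4, Lyve1 and Apoe, the 8 highest and 8 lowest fold changes among called genes whose libraries do not overlap (at 24 h, that move the same way in every tissue; between clusters, among those called), up to 4 called members per gene list or otherwise its 2 most abundant tested members, and the 10 highest and 10 lowest ratios of genes higher or lower in all libraries. A few genes that the rule names are not reported here. Members, lists and tests were chosen with earlier results of these data known. Alternatives were DESeq2 1.42.0, library size alone, no filter, thinning to 500 UMIs, a minimum of 10 cells, kit version as a term or version 2 alone, the longer gene list and each library left out. The barcode set was added after seeing the data. The edgeR and DESeq2 steps were tested on simulated data. Other steps ran in Python 3.11.15 with pandas 2.3.3, numpy 2.4.6 and scipy 1.17.1, figures with matplotlib 3.10.9, and the seed was 20220217.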

Additional observations from a re-analysis of the deposited data

Results flagged for a closer look

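Flagged are genes for which a test of the difference itself found an effect unlike in the CAM_2 cluster and in another cluster of the same libraries. Values are differences of log2 fold changes by edgeR, and beside genes at or near 0 in a group they depend on the small count that edgeR adds. The 24 h effect was larger in CAM_2 than in CAM_1 for Mt2 (2.16) and Hbb-bs (9.30), and larger than in the microglia clusters for Mt2 (2.53).

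The signed log2 fold change of brain over pia and dura was higher in CAM_2 than in CAM_1, also where brain was only less far below the meninges, for Igkc (5.23), Mmp19 (3.93), Cd93 (3.92), Kif13b (3.49), Ptgds (3.17), Ccr2 (3.15), Trps1 (3.08), Specc1l (3.08), Il1a (2.66), Txnrd1 (2.66), Fabp5 (2.57), Srxn1 (2.54), Apoe (2.46), Ms4a7 (2.40), Hmox1 (1.59), Slc7a11 (1.46) and Nlrp3 (1.28). It was lower for Lpl (-3.83), Txnip (-1.75), Dusp6 (-1.72), Cd9 (-1.67), Ccl12 (-1.58), Tmem119 (-1.30), Gna15 (-1.25) and Tsc22d4 (-1.10). Of these 25 genes the call held for 8 with DESeq2, 4 after thinning, 6 with the kit term, 3 in version 2 libraries, 18 with the longer gene list and 19 with the barcode set as a term, which was chosen after seeing the data. The log2 ratio of Igkc, an immunoglobulin gene, to CAM_1, with 0.5 UMIs added, was 6.61 in brain at 24 h replicate 2 and at or below 1.06 in the other 7 libraries. For Slc7a11 the mean of this ratio was -1.18 over the 4 brain libraries and -0.80 over pia and dura, the opposite direction to its fitted value of 1.46. The brain mean includes the 72 h library, which does not enter that value.

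Against the microglia clusters it was higher for Nav3 (7.42), Plac8 (7.28), Ncapg2 (7.15), Morrbid (6.04), Gcnt2 (6.03), Spint1 (5.95), Il6 (5.89), Ifitm1 (5.66), Cst7 (3.88), Igkc (3.76), Srxn1 (3.12), Il1a (2.92), Clec10a (2.91), Slc7a11 (2.65), Sparc (2.64), Ms4a7 (2.50), Txnrd1 (2.38), Ccl4 (2.30), Lgals3 (2.17), F13a1 (2.16), Cd9 (2.11), Nr4a1 (1.70) and Hmox1 (1.67). It was lower for Ccl8 (-7.46), Saa3 (-5.72), Msrb2 (-5.35), B4gat1 (-5.02), Arhgap19 (-4.57), Serpinb6a (-2.51), Taok1 (-2.50), Gna12 (-2.05), Fcgrt (-1.89) and Stab1 (-1.46). Of these 33 genes the call held for 7 with DESeq2, 6 after thinning, 5 with the kit term, 2 in version 2 libraries, 19 with the longer gene list and 21 with the barcode set as a term. For Saa3 the mean log2 ratio to microglia was 1.65 over the 4 brain libraries and 2.02 over pia and dura. These means lay closer together than its fitted value of -5.72 gives. So did those of Nav3 (-2.68 and -4.13) and Il6 (-1.63 and -3.74) beside their fitted values. For other genes, such as Txnrd1 (0.97 and -2.11), they did not. The brain means here include the 72 h library, which does not enter the fitted values. In dura only 51 and 76 microglia cells were annotated in control and at 24 h, so their sums rest on 65800 and 133537 UMIs. No condition had 4 libraries, so single libraries were not tested for standing apart from their condition.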

How the results depend on the processing

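The count of genes called between brain and meninges was 248 and kept within 1.5 times under DESeq2, library size alone, thinning and a minimum of 10 cells. It was 504 without a filter on low counts, 57 with kit version as a term, 92 in kit version 2 libraries, 1022 in libraries with the longer gene list and 1240 with the barcode set as a term, an alternative chosen after seeing the data. Leaving out 1 library gave 56 to 1223. Between dura and pia, 1 call became 0 with DESeq2, with library size alone, after thinning, with the kit term and in version 2 libraries, 5 without the filter, 28 with the longer gene list and 51 with the barcode term, and 0 to 42 by left-out library. At 24 h, 1 call became 5 with DESeq2, 52 without the filter, 6 after thinning, 0 with the kit term, 2 in version 2 libraries, 204 with the longer list and 322 with the barcode term, and 0 to 288 by left-out library. At 72 h, 11 calls became 51, 176, 80, 0 and 131 with DESeq2, no filter, thinning, the kit term and the barcode term, and 0 to 2330 by left-out library. The 24 h effect of brain against meninges had 35 calls with the longer list, 32 with the barcode term and 0 to 655 by left-out library.

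The 24 h effect against CAM_1 had 0 calls with DESeq2, 5 with library size alone, 1 after thinning, 1 with the kit term, 1 in version 2 libraries, 25 with the longer list, 23 with the barcode term and 1 to 25 by left-out library. Against microglia it had 0, 2, 2, 4 and 11 with DESeq2, the kit term, version 2 libraries, the longer list and the barcode term, and 0 to 10 by left-out library. The brain effect against CAM_1 had 98 calls, and 15 with DESeq2, 61 without the filter, 24 after thinning, 11 with the kit term, 4 in version 2 libraries, 148 with the longer list and 20 to 143 by left-out library. Against microglia it had 92 calls, and 30, 12, 11, 5, 197 and 181 with DESeq2, thinning, the kit term, version 2 libraries, the longer list and the barcode term, and 8 to 192 by left-out library. The barcodes go against the kit labels of dura at 24 h and of brain at 24 h replicate 2, so what the counts by kit version mean is in doubt. The causes were not tested.

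Signs of the brain effect against CAM_1 reversed for Igkc (-1.84 with the longer list, -1.86 with the barcode term and -2.03 to 8.57 by left-out library, lowest without brain at 24 h replicate 2), Cd93 (-0.64 with the longer list, -0.65 with the barcode term and -0.82 to 4.19 by left-out library, lowest without brain at 24 h replicate 2) and Slc7a11 (-0.079 to 2.08 by left-out library, lowest without brain at 24 h replicate 1).

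Signs of the brain effect against microglia reversed for Ifitm1 (-0.95 to 9.76 by left-out library, lowest without pia at 24 h), Clec10a (-3.15 with the longer list, -3.30 with the barcode term and -3.35 to 3.57 by left-out library, lowest without brain at 24 h replicate 2), F13a1 (-5.32 with the longer list, -5.45 with the barcode term and -5.50 to 3.32 by left-out library, lowest without brain at 24 h replicate 2), Lgals3 (-0.21 with the kit term, -0.22 with version 2 libraries and -0.26 to 2.88 by left-out library, lowest without dura at 24 h), Srxn1 (-0.10 with thinning), Slc7a11 (-1.51 with the kit term, -1.54 with version 2 libraries and -1.61 to 3.17 by left-out library, lowest without dura at 24 h) and Igkc (-3.40 with the longer list, -3.61 with the barcode term and -3.69 to 4.74 by left-out library, lowest without brain at 24 h replicate 2).

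The share of CAM_2 cells with a Pf4 UMI at 1000 UMIs moved at 72 h to 32.7% unthinned and 8.26% at 500 UMIs, in control pia to 89.4% unthinned, in pia at 24 h to 80.6% and 61.8% and in dura at 24 h to 80.9% and 51.9%. The count of genes higher or lower in CAM_2 than in microglia in all libraries was 491, and 300 after thinning. Of genes tested by name, 18 of 56 between brain and meninges passed under every alternative, and none of those of the other comparisons. No result could be had at 72 h in version 2 libraries, with the longer list or without the 72 h library, nor for the 24 h effect of brain against meninges without control brain. Between clusters, library was a block. Between tissues or times no paired analysis was possible, because the groups compared share only replicate number 1, which the labels do not tie to an animal or a day. The labels do not say whether the brain, pia and dura libraries of a condition share mice. Depth limits control dura most, where 3 UMIs are 22.5 CPM. Most conditions had 1 library, so the spread of a condition was taken from the fit over all of them, and where a left-out library left a condition with no partner its spread was assumed to be that of the rest.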
